A study of Mus musculus with 21 samples.

Results

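The miR-378 family comprised 5 microRNA names in the count table, miR-378a-3p, miR-378a-5p, miR-378b, miR-378c and miR-378d, out of 1903 named microRNAs. They were chosen by name alone, and all 5 passed the filter on low counts. The table gives sequencing counts of mature microRNAs in the left ventricle of 21 mice of strain C57BL/6J, with a library for each mouse. There were 5 mice with transverse aortic constriction and sildenafil, which inhibits PDE5A (TAC+PDE5A-I), and 6 with constriction and PF-04449613, which inhibits PDE9A (TAC+PDE9A-I). A further 5 mice had constriction and no drug (TAC), and 5 had sham surgery and no drug (Sham). Transverse aortic constriction narrows the aorta and loads the left ventricle with pressure, and PDE5A and PDE9A are enzymes that break down the messenger cGMP. Drugs were started 1 week after surgery and given for 4 weeks, with doses not given in the sources used here. Both drugs were given only to mice with constriction, so no sham group received either drug.

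miR-378a is made from an intron of Ppargc1b, which encodes the coactivator PGC-1β, a regulator of mitochondrial and fatty acid metabolism. The microRNA is abundant in muscle and brown fat. In heart muscle cells miR-378a-3p is known to repress components of growth factor signalling such as Igf1r and Grb2, and its level is known to decline in hypertrophied hearts. Its hairpin has a second arm, miR-378a-5p, which is known from breast cancer cells to target Gabpa, a regulator of oxidative metabolism. miR-378b, miR-378c and miR-378d come from other loci and carry sequences close to that of miR-378a-3p.

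The sequences of 3 members are shown because reads of such close relatives can be assigned to one another. They were taken from RefSeq (GRCm38.p6), which matched 3 of the 5 names, and capitals mark the seed, bases 2 to 8, through which a microRNA recognises its targets.

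miR-378b: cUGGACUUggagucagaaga

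miR-378c: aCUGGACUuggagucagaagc

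miR-378d: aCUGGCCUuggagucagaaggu

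miR-378b and miR-378c shared a run of 19 bases. miR-378c starts 1 base upstream of miR-378b, so their annotated seeds are shifted, UGGACUU in miR-378b and CUGGACU in miR-378c. Aligned on the shared run, with positions counted from the 5′ end of miR-378b, the pair differed by A20C. miR-378d had a seed of its own, CUGGCCU, and differed from miR-378c by A6C and C21G, with positions counted from the 5′ end of miR-378c. Among these 3 members, then, none shared a seed with another.

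In the GRCm38 annotation, only the miR-378a hairpin lay in Ppargc1b, in an intron on the gene's own strand on chromosome 18. The miR-378b hairpin (chr11:88352773-88352864, plus strand) lay in an intron of Msi2, which encodes an RNA-binding protein, on the strand opposite to the gene. The miR-378c hairpin (chr14:46954830-46954928, minus strand) lay in an intron of Samd4, which encodes a translational repressor, again on the opposite strand. The miR-378d hairpin (chr10:126710282-126710391, minus strand) was intergenic, 158036 bases from the nearest protein-coding gene, Atp23. The name "Ppargc1b intron" therefore applied to miR-378a and not to the other 3 loci.

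Total counts were 1205417 to 3969716 in TAC+PDE5A-I libraries, 1546318 to 7532591 in TAC+PDE9A-I, 5373960 to 8497792 in TAC and 3766517 to 7490436 in Sham. The 4 shallowest libraries, all under 2000000 counts, were TAC+PDE5A-I 3, 4 and 5 and TAC+PDE9A-I 5. All 4 heart muscle markers (miR-499-5p, miR-208a-3p, miR-1a-3p and miR-133a-3p) had counts in all 21 libraries, and miR-206-3p, a marker of skeletal muscle, had none in any. Of 3 brown fat markers, miR-196a-5p had no count in any library, and the 3 together summed to 111 ± 30.3 CPM in TAC+PDE5A-I, 83.2 ± 10.2 in TAC+PDE9A-I, 86.5 ± 17.8 in TAC and 75.8 ± 13.4 in Sham. The other markers of this list went opposite ways with sildenafil. miR-193b-3p averaged 74.4 CPM in TAC+PDE5A-I against 44.3 CPM in TAC, and miR-365-3p averaged 36.6 CPM against 42.2 CPM. Levels below are CPM, read counts set relative to a TMM-scaled library total, which corrects for depth and composition. They are given as mean ± SD over the mice of a group.

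miR-378a-3p was one of the most abundant microRNAs of the ventricle. Among the 561 microRNAs tested it ranked 4 by mean level in TAC+PDE5A-I, 7 in TAC+PDE9A-I, 7 in TAC and 5 in Sham. It held 96.6% ± 0.367 of all miR-378 reads in TAC+PDE5A-I, 95.9% ± 0.538 in TAC+PDE9A-I, 95.2% ± 0.436 in TAC and 94.8% ± 0.301 in Sham. miR-378c ranked 51 to 66, miR-378b 64 to 90, miR-378a-5p 78 to 107 and miR-378d 248 to 293 over the 4 groups.

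The 5 members together made up 4.80% ± 0.559 of all microRNA counts in TAC+PDE5A-I, 4.10% ± 0.644 in TAC+PDE9A-I, 3.73% ± 0.465 in TAC and 4.72% ± 0.275 in Sham (n = 5, 6, 5 and 5). This sum does not depend on how reads were divided among the members, and it was not tested. It was lowest in TAC, where the libraries spanned 3.05% to 4.30%, against 4.28% to 5.05% in Sham, so the ranges of TAC and Sham overlapped at 1 library each. On the TMM scale used for the members below they did not overlap, with 30414 to 42280 CPM in TAC against 46399 to 56279 CPM in Sham. The order of sildenafil and Sham also depended on the scale, with a TMM-scaled mean of 46435 CPM in TAC+PDE5A-I against 52245 CPM in Sham.

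**Figure D1:**
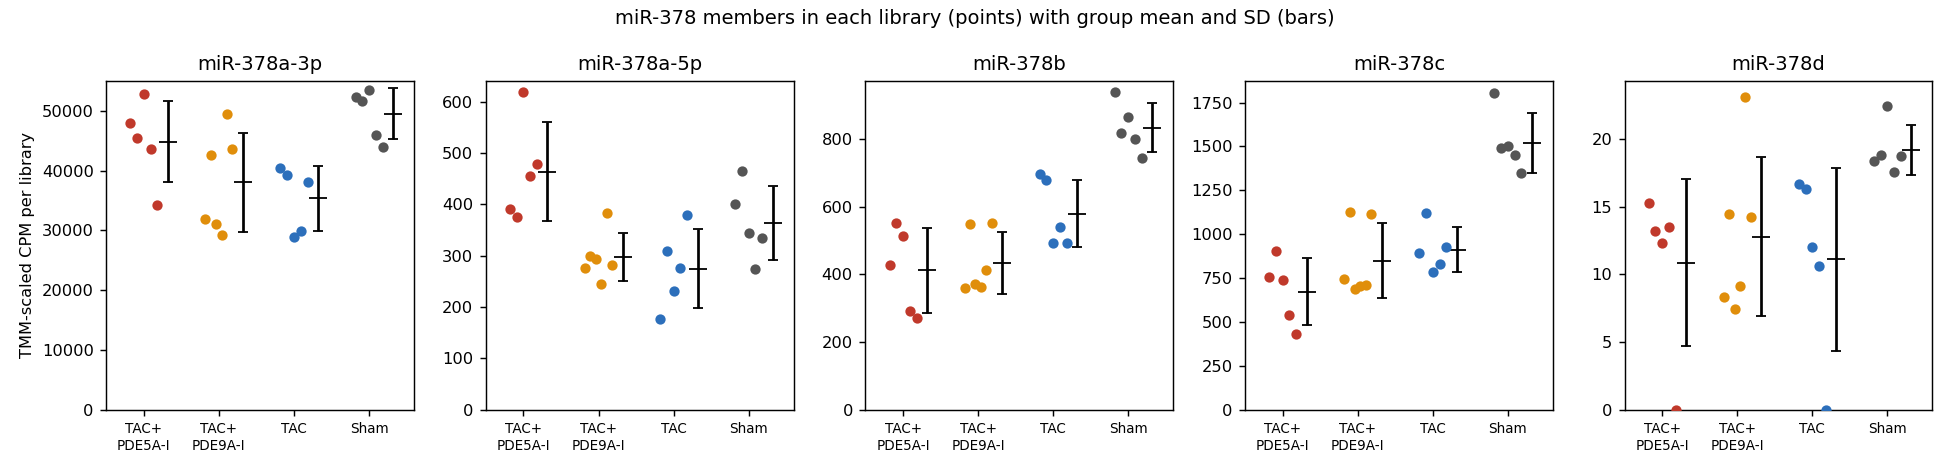
Level of each miR-378 member in every library (points, TMM-scaled CPM on a linear axis from 0) with the group mean and SD (bars), for TAC+PDE5A-I, TAC+PDE9A-I, TAC and Sham. miR-378b and miR-378c are highest in the 5 Sham libraries, with no library of another group reaching them, while miR-378a-5p is highest in TAC+PDE5A-I on average, at 464 CPM.

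TAC against Sham asked how pressure overload alone changed the family. All 5 members had a lower mean in TAC, and none passed the test at an adjusted p under 0.05. Of all 561 microRNAs tested, 2.32% passed in this comparison. The size of the difference was 1.32-fold to 1.72-fold, and miR-378c came nearest to the threshold.

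miR-378c, the second most abundant member, had 894, 1121, 784, 831 and 927 CPM in TAC 1 to 5, against 1804, 1494, 1502, 1454 and 1347 CPM in Sham 1 to 5. Every TAC library was below every Sham library. The level was 1.67-fold lower in TAC and the log2 fold change -0.74 ± 0.21 (± SE), which did not pass (edgeR quasi-likelihood test, adjusted p = 0.0608). In a fit of the TAC and Sham libraries alone the change was -0.60 ± 0.11 and passed (adjusted p = 0.00308), where 19.3% of all microRNAs passed. It also passed with DESeq2 (adjusted p = 0.00502), where 9.63% did.

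miR-378b had 696, 678, 492, 540 and 492 CPM in TAC 1 to 5, against 938, 818, 863, 801 and 745 CPM in Sham 1 to 5. Here too the groups did not overlap. The log2 fold change was -0.52 ± 0.21, a 1.44-fold lower level in TAC (adjusted p = 0.18).

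miR-378a-3p, the arm with nearly all of the reads, had 40496, 39316, 28894, 29981 and 38119 CPM in TAC 1 to 5, against 52385, 51692, 53546, 45969 and 43954 CPM in Sham 1 to 5. TAC 3 and TAC 4 were the lowest, and no TAC library reached the lowest Sham library. The log2 fold change was -0.49 ± 0.18, 1.40-fold lower in TAC (adjusted p = 0.164, and 0.0133 with DESeq2). Scaled by total counts alone, TAC 2 had 40753 CPM and Sham 1 had 40399 CPM, so on that scale the groups overlapped.

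miR-378a-5p, the other arm of the same hairpin, had 177, 309, 232, 276 and 380 CPM in TAC 1 to 5, against 400, 465, 344, 273 and 334 CPM in Sham 1 to 5. The groups overlapped, with TAC 5 above 3 of the 5 Sham libraries. The log2 fold change was -0.40 ± 0.21 (adjusted p = 0.366).

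miR-378d, the rarest member, had 85, 121, 84, 87 and 0 reads in TAC 1 to 5, against 106, 100, 109, 65 and 97 reads in Sham 1 to 5. The absence of reads in TAC 5 set an upper limit of 0.558 CPM on its level there. The log2 fold change was -0.78, with a 95% interval of -2.30 to 0.73, so the data did not fix its direction (adjusted p = 0.811).

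Thus on the TMM scale 4 of the 5 members had groups that did not overlap, all lower in TAC, where 16.9% of all microRNAs tested did not overlap and 8.56% did so in the lower direction. For miR-378d the separation was narrow, with 16.7 CPM in TAC 1 (85 reads) against 17.6 CPM in Sham 4 (65 reads). On total counts 2 of the 5, miR-378b and miR-378c, did not overlap. The share over all microRNAs was not computed on that scale, so this count has nothing to be set against. The members are not independent measurements, since reads of one may be counted under another. Their median log2 fold change was -0.52, beside -0.079 over all 561 microRNAs.

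Some markers of the cell types of the heart differed between the same groups. On average the endothelial markers summed to 35260 CPM in TAC and 38246 CPM in Sham, and the smooth muscle markers to 94583 and 87455 CPM. Leukocyte markers summed to 2166 CPM in TAC and 2499 CPM in Sham. The 4 heart muscle markers summed to 77729 to 144054 CPM in TAC and 139528 to 177857 CPM in Sham, nearly all of it miR-133a-3p, and none of the 4 passed. The 3 markers of fibroblasts and stroma summed to 6240 to 17966 CPM in TAC and 2789 to 3202 CPM in Sham, and miR-199a-5p and miR-214-3p of these passed as higher. In whole ventricle, fewer cells of a type and less RNA per cell cannot be told apart, and the part of cell composition in the miR-378 values was not tested.

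The mice carried ear tags in the 100s, 500s and 600s, and what these ranges stand for is not given in the sources used here. Within the 100s (2 TAC, 3 Sham mice) the mean log2 level of miR-378c was lower in TAC by -0.67 and that of miR-378a-3p by -0.40. Within the 600s (2 mice each) the differences were -0.67 and -0.41. miR-378b differed by -0.34 and -0.58, while miR-378a-5p differed by -0.77 in the 100s and 0.10 in the 600s.

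TAC+PDE5A-I against TAC asked what sildenafil changed under the same load. Here 1 member passed: miR-378a-5p rose, by 1.69-fold. The other 4 did not pass. In this comparison 46.3% of all microRNAs tested passed, 21.6% in the higher direction, so 1 call in 5 is close to that share.

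miR-378a-5p had 391, 376, 618, 456 and 479 CPM in TAC+PDE5A-I 1 to 5, and in TAC the 177 to 380 CPM given above. TAC+PDE5A-I 2 lay just under TAC 5, and the other 4 sildenafil libraries lay above every TAC library. The log2 fold change was 0.76 ± 0.21 (adjusted p = 0.00735). The call was lost without TAC 3 (0.48, adjusted p = 0.08), without TAC+PDE5A-I 3 (0.38, adjusted p = 0.127), without TAC+PDE5A-I 4 (0.50, adjusted p = 0.0621) and without TAC+PDE5A-I 5 (0.49, adjusted p = 0.0557). It was also lost without the 4 libraries under 2000000 counts (0.49, adjusted p = 0.153) and without the filter on low counts (0.51, adjusted p = 0.0642).

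miR-378a-3p had 47963, 45525, 52832, 43721 and 34338 CPM in TAC+PDE5A-I 1 to 5. Of these, 4 were above the highest TAC library and TAC+PDE5A-I 5 was within the TAC range. The log2 fold change was 0.34 ± 0.18 (adjusted p = 0.12). The direction did not depend on the scaling, but the call did: it passed with total counts (0.38, adjusted p = 0.0425) and with upper-quartile scaling (0.82, adjusted p = 0.00695).

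miR-378b had 428, 552, 512, 291 and 272 CPM in TAC+PDE5A-I 1 to 5, and miR-378c had 756, 904, 738, 539 and 430 CPM. TAC+PDE5A-I 4 and 5 were the lowest for both members, and for both the libraries overlapped with TAC. The log2 fold changes of -0.49 ± 0.21 for miR-378b (adjusted p = 0.0552) and -0.44 ± 0.21 for miR-378c (adjusted p = 0.0876) did not pass. With DESeq2 both passed, at -0.67 (adjusted p = 0.00336) and -0.61 (adjusted p = 0.00827). With a correction for GC content miR-378b was at 0.081, and with upper-quartile scaling miR-378c was at 0.014, so the sign depended on the setting. The median over the microRNAs tested moved too, from -0.31 to 0.22 with the GC correction and to 0.16 with upper-quartile scaling. Both values lay below the median of their setting. miR-378d had 51, 59, 17, 20 and 0 reads in TAC+PDE5A-I 1 to 5, and its log2 fold change was -0.018 with an interval of -1.56 to 1.52.

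Markers of several cell types moved in these sildenafil libraries too, and not in 1 direction within a list. Of the heart muscle markers, miR-133a-3p rose, at 189603 CPM in TAC+PDE5A-I against 107555 CPM in TAC on average. The other 3 fell, miR-1a-3p to 395 CPM against 4197, miR-208a-3p to 46.9 against 475 and miR-499-5p to 113 against 591. The fibroblast and stroma markers summed to 855 to 1671 CPM in TAC+PDE5A-I against 6240 to 17966 CPM in TAC, with miR-21a-5p and miR-199a-5p lower and miR-214-3p not passing (0.89, adjusted p = 0.0772). The part of cell composition in the miR-378 values of sildenafil libraries was not tested.

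TAC+PDE9A-I against TAC asked the same of PF-04449613. No member passed, and 0% of all microRNAs tested passed with edgeR, with 16 at an unadjusted p under 0.05 and 2 called by DESeq2. miR-378a-3p ran from 29275 to 49572 CPM with a median of 37303 in TAC+PDE9A-I, a log2 fold change of 0.11 with a 95% interval of -0.25 to 0.46. For miR-378c the range was 689 to 1127 CPM with a median of 728, a log2 fold change of -0.10 with an interval of -0.51 to 0.31. These spans include the TAC ranges nearly whole.

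miR-378b was at 359 to 551 CPM with a median of 393 in TAC+PDE9A-I. Its log2 fold change was -0.42 ± 0.20 and did not pass (adjusted p = 0.991, unadjusted p = 0.0458). Its libraries overlapped with TAC, but 4 of the 6 lay below the lowest TAC library. miR-378a-5p had 245 to 384 CPM with a median of 288, and a log2 fold change of 0.11 with an interval of -0.30 to 0.52. miR-378d ran from 37 to 81 reads with a median of 63.5, and its log2 fold change of 0.18 had an interval of -1.28 to 1.64.

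The drugs were then compared with each other at matched times. TAC+PDE5A-I and TAC+PDE9A-I differed in miR-378a-5p, which was 1.56-fold higher in TAC+PDE5A-I (464 ± 96.5 CPM against 297 ± 46.6 CPM, n = 5 and 6). Its log2 fold change was 0.64 ± 0.20 (adjusted p = 0.019), in a comparison where 34.8% of all microRNAs passed and 15.2% were higher. The call was lost without any 1 of 8 of the 11 libraries, with log2 values over all 11 omissions of 0.34 to 0.63, and without the 4 libraries under 2000000 counts (0.45, adjusted p = 0.216). The differences in the other members did not pass, with intervals of -0.12 to 0.59 for miR-378a-3p, -0.49 to 0.33 for miR-378b, -0.75 to 0.08 for miR-378c and -1.68 to 1.29 for miR-378d.

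**Figure D2:**
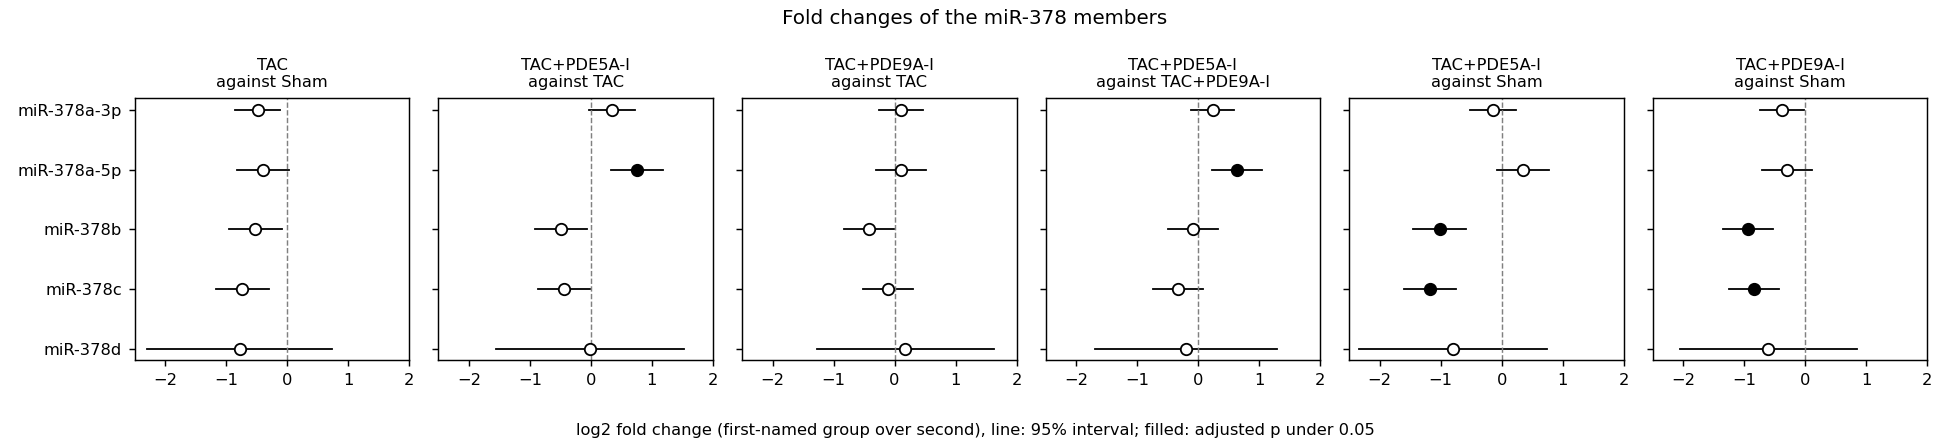
Fold change of each member in the 6 comparisons, on a log2 axis, as first-named group over second. Lines are 95% intervals and filled points passed at an adjusted p under 0.05. miR-378a-5p passes as higher in TAC+PDE5A-I than in TAC and TAC+PDE9A-I, and miR-378b and miR-378c pass as lower in both drug groups than in Sham.

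Against Sham, the members parted in the drug groups. In TAC+PDE5A-I, miR-378b and miR-378c fell, by 2.02-fold and 2.26-fold, while miR-378a-3p and miR-378a-5p did not pass. In TAC+PDE9A-I, the same pair fell, by 1.92-fold and 1.79-fold. Both comparisons share the Sham libraries, so they are not independent of each other.

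In TAC+PDE5A-I against Sham, miR-378b averaged 411 ± 127 CPM against 833 ± 72.3 CPM, a log2 fold change of -1.02 ± 0.21 (n = 5 each, adjusted p = 0.00105). miR-378c averaged 673 ± 188 CPM against 1520 ± 170 CPM, a log2 fold change of -1.17 ± 0.21 (adjusted p = 0.000396). In both, every sildenafil library was below every Sham library, as it was for miR-378d. In this comparison 42.6% of all microRNAs passed, 23.5% in the lower direction. Groups that did not overlap were found for 32.8%, and for 21.6% in the lower direction. Of the 5 members 2 were called and 3 separated, all lower. The 2 calls in 5 are near the share of all microRNAs called. Among the log2 fold changes of all microRNAs, miR-378b was at percentile 34.9 and miR-378c at 32.3.

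By contrast, miR-378a-3p averaged 44876 ± 6812 CPM in TAC+PDE5A-I against 49509 ± 4264 CPM in Sham. Its log2 fold change was -0.14 with an interval of -0.51 to 0.23 (adjusted p = 0.554), and it turned to 0.051 with total counts and 0.35 with upper-quartile scaling. miR-378a-5p had a log2 fold change of 0.35 ± 0.21 (adjusted p = 0.171), and that of miR-378d was -0.80 with an interval of -2.34 to 0.74.

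The calls of miR-378b and miR-378c in TAC+PDE5A-I held without any 1 library, with log2 values of -1.25 to -0.97 and -1.36 to -1.11. Without the 4 libraries under 2000000 counts they were -0.76 ± 0.21 (adjusted p = 0.0185) and -0.87 ± 0.22 (adjusted p = 0.0105), and still passed. With the correction for GC content miR-378b was at -0.53 and no longer passed (adjusted p = 0.0958).

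In TAC+PDE9A-I against Sham, miR-378b averaged 434 ± 90.9 CPM against 833 ± 72.3 CPM, a log2 fold change of -0.94 ± 0.20 (n = 6 and 5, adjusted p = 0.0119). miR-378c averaged 849 ± 212 CPM against 1520 ± 170 CPM, a log2 fold change of -0.84 ± 0.20 (adjusted p = 0.0228). The groups did not overlap for either. Here 1.96% of all microRNAs passed and 0.713% were lower, 4 microRNAs in all, of which the pair made up 2. Groups that did not overlap were found for 3.92% of microRNAs, and for 2.67% in the lower direction.

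miR-378a-3p averaged 38042 ± 8341 CPM in TAC+PDE9A-I, with a log2 fold change of -0.38 ± 0.17 against Sham (adjusted p = 0.38). miR-378a-5p was at -0.29 with an interval of -0.70 to 0.12 and miR-378d at -0.60 with an interval of -2.05 to 0.85. The shallow library TAC+PDE9A-I 5 had the highest miR-378a-3p of its group, at 49572 CPM, and the highest miR-378d, at 23.1 CPM from 37 reads.

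Both calls in TAC+PDE9A-I depended on single libraries. miR-378c lost its call without any 1 of 8 libraries, Sham 1, 3, 4 or 5 or TAC+PDE9A-I 1, 3, 4 or 5 (adjusted p = 0.0518 to 0.15 over those 8, log2 values of -0.86 to -0.71 over all 11 omissions). miR-378b lost it without TAC+PDE9A-I 3 (adjusted p = 0.0935) or 4 (adjusted p = 0.0899). Both were lost when ear tag range was added to the model, at -0.92 (adjusted p = 0.151) and -0.83 (adjusted p = 0.205). Without the 4 shallow libraries both passed, at -0.92 ± 0.16 (adjusted p = 0.00233) and -0.79 ± 0.16 (adjusted p = 0.00717).

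The proportions of the members within each library were compared next, because a ratio of reads within a library does not depend on how libraries are scaled. For each library the reads of miR-378c, miR-378b and miR-378a-5p were taken per 100 reads of miR-378a-3p. Group means for miR-378b and miR-378c were 0.907 to 3.07 per 100. A small share of miR-378a-3p reads assigned to them would therefore alter these ratios. How such reads were assigned is not given in the sources used here, and its part in the ratios was not tested. Differences in mean log2 ratio were tested with a two-sided exact permutation test over mice, adjusted over the 18 tests of 3 ratios in 6 comparisons. The smallest p the arrangements allow is 0.00794 with 5 mice against 5 and 0.00433 with 6 against 5.

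For miR-378c the ratio was 1.58, 1.99, 1.40, 1.23 and 1.25 in TAC+PDE5A-I 1 to 5 and 1.44 to 2.64 with a median of 2.37 in TAC+PDE9A-I. It was 2.21, 2.85, 2.71, 2.77 and 2.43 in TAC 1 to 5, and 3.44, 2.89, 2.81, 3.16 and 3.06 in Sham 1 to 5. Every sildenafil library lay below every TAC library, and TAC overlapped with Sham at a pair of libraries, TAC 2 and Sham 3. Exact Clopper-Pearson 95% intervals, which cover counting error only, ran from 1.15 to 1.36 in TAC+PDE5A-I 5, the shallowest library, and from 2.70 to 2.84 in TAC 4, the deepest.

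The miR-378c ratio differed by -0.82 ± 0.14 on the log2 scale (SE) between TAC+PDE5A-I and TAC, with 1.49 ± 0.31 reads per 100 in TAC+PDE5A-I and 2.60 ± 0.268 in TAC (n = 5 each, exact permutation p = 0.00794, adjusted p = 0.0204). Between TAC+PDE5A-I and Sham the difference was -1.06 ± 0.14 (exact permutation, adjusted p = 0.0204), and between TAC+PDE9A-I and Sham it was -0.46 ± 0.14 (exact permutation, adjusted p = 0.0204). Between TAC+PDE5A-I and TAC+PDE9A-I it was -0.60 ± 0.18 (exact permutation, adjusted p = 0.0292), with groups that overlapped. This call was lost without TAC+PDE5A-I 3, 4 or 5 (-0.58, -0.54 and -0.54, exact permutation, adjusted p = 0.0571 each). Without the 4 shallow libraries the difference was -0.46, with 2 sildenafil mice left, too few for this test to pass. In the ear tag 500s (2 and 4 mice) it was -0.26 with overlap, and in the 600s (3 and 1 mice) -0.98. The difference between TAC+PDE9A-I and TAC did not pass (-0.22 ± 0.15, exact permutation, adjusted p = 0.212).

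TAC against Sham also passed for miR-378c, with 2.60 ± 0.268 against 3.07 ± 0.25 reads per 100 and a difference of -0.25 ± 0.086 (n = 5 each, exact permutation p = 0.0159, adjusted p = 0.0317). The test lost its call when any 1 of 8 of the 10 libraries was left out, with adjusted p up to 0.0635 and log2 differences of -0.28 to -0.19 over the 10 omissions. In the ear tag 100s (2 and 3 mice) the difference was -0.27 with overlap, and in the 600s (2 mice each) -0.26 without overlap.

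For miR-378b the ratio was 0.893, 1.21, 0.97, 0.666 and 0.793 in TAC+PDE5A-I 1 to 5 and 0.832 to 1.28 with a median of 1.22 in TAC+PDE9A-I. It was 1.72, 1.73, 1.70, 1.8 and 1.29 in TAC 1 to 5, and 1.79, 1.58, 1.61, 1.74 and 1.69 in Sham 1 to 5. All 11 libraries of drug-treated mice were below all 10 of the others, although TAC 5, at 1.29, was barely above the highest TAC+PDE9A-I library, at 1.28. TAC without TAC 5 lay inside or just above the Sham range.

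The miR-378b ratio was 0.907 ± 0.205 in TAC+PDE5A-I against 1.65 ± 0.203 in TAC, a log2 difference of -0.88 ± 0.17 (n = 5 each, exact permutation p = 0.00794, adjusted p = 0.0204). In TAC+PDE9A-I it was 1.16 ± 0.168, a log2 difference of -0.52 ± 0.13 from TAC (n = 6 and 5, exact permutation p = 0.00433, adjusted p = 0.0204). Against Sham, at 1.68 ± 0.0867, the differences were -0.92 ± 0.15 for TAC+PDE5A-I and -0.56 ± 0.10 for TAC+PDE9A-I (exact permutation, adjusted p = 0.0204 for each). The difference between TAC+PDE5A-I and TAC+PDE9A-I did not pass (-0.36 ± 0.17, exact permutation, adjusted p = 0.11), nor did that between TAC and Sham (-0.04 ± 0.093, exact permutation, adjusted p = 0.849).

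So miR-378c and miR-378b, which share a run of 19 bases, gave different answers in TAC against Sham, where the ratio of miR-378c differed and that of miR-378b did not pass. Whether those 2 answers differ from each other was not tested.

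**Figure D3:**
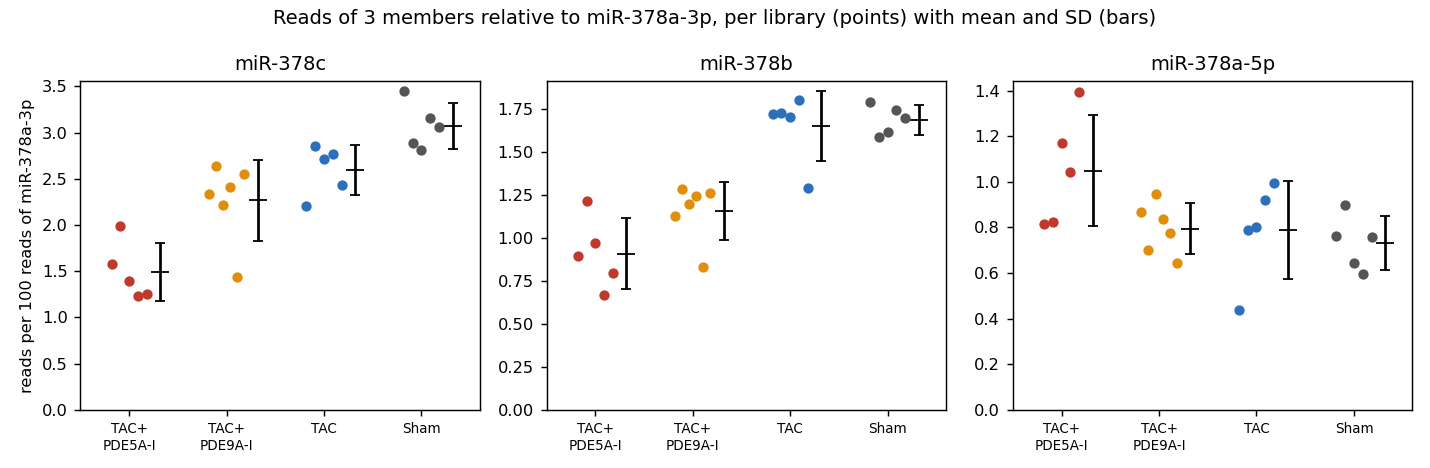
Reads of miR-378c, miR-378b and miR-378a-5p per 100 reads of miR-378a-3p in each library (points) with group mean and SD (bars), on linear axes from 0. For miR-378b all 11 libraries of drug-treated mice lie below the 10 TAC and Sham libraries.

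Within ear tag ranges the miR-378b ratio was lower in both drug groups than in TAC. For TAC+PDE9A-I against TAC it was -0.61 in the 100s (1 and 2 mice), -0.60 in the 500s (4 and 1 mice) and -0.27 in the 600s (1 and 2 mice), with no overlap in any range. For TAC+PDE5A-I against TAC it was -0.71 in the 500s (2 and 1 mice) and -0.93 in the 600s (3 and 2 mice), again with no overlap. The sildenafil group had no mouse in the 100s, and Sham had none in the 500s. For TAC against Sham it was 0.054 in the 100s and -0.17 in the 600s, with overlap in both.

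The arms of the miR-378a hairpin were compared in the same way. miR-378a-5p had 0.815, 0.825, 1.17, 1.04 and 1.39 reads per 100 of miR-378a-3p in TAC+PDE5A-I 1 to 5, against 0.436, 0.787, 0.803, 0.919 and 0.996 in TAC 1 to 5. It ran from 0.645 to 0.945 in TAC+PDE9A-I and from 0.595 to 0.899 in Sham. The 3 libraries above 1 were TAC+PDE5A-I 3, 4 and 5, the shallow libraries of that group. None of the 6 comparisons passed for this ratio, the nearest being TAC+PDE5A-I against Sham (0.50 ± 0.18, exact permutation, adjusted p = 0.0714).

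Depth moved with these ratios. The 4 libraries under 2000000 counts had miR-378c ratios of 1.23 to 1.44 and miR-378b ratios of 0.666 to 0.97, and in TAC+PDE9A-I the shallow library 5 was the lowest for both, at 1.44 and 0.832. The 2 deeper sildenafil libraries, with 3149080 and 3969716 counts, had miR-378c ratios of 1.58 and 1.99 and miR-378b ratios of 0.893 and 1.21, below the lowest TAC values of 2.21 and 1.29. With counts thinned to the smallest library total, no call on the miR-378b or miR-378c ratio changed. Thinning removes reads of all members at the same rate and leaves the expected ratios as they were. It therefore cannot test whether the ratios shift with depth. Every TAC library was deeper than every sildenafil library, so for sildenafil library depth and drug cannot be told apart.

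Without the 4 shallow libraries, an omission chosen after seeing the data, TAC+PDE9A-I against TAC still passed for the miR-378b ratio, at -0.42 (5 against 5 mice, exact permutation, adjusted p = 0.0476). TAC+PDE9A-I against Sham passed for both ratios, at -0.46 for miR-378b and -0.34 for miR-378c (exact permutation, adjusted p = 0.0476 for each). The sildenafil differences from TAC were -0.65 for miR-378b and -0.55 for miR-378c, with 2 mice against 5, which cannot pass (exact permutation, adjusted p = 0.19 for each).

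**Figure D4:**
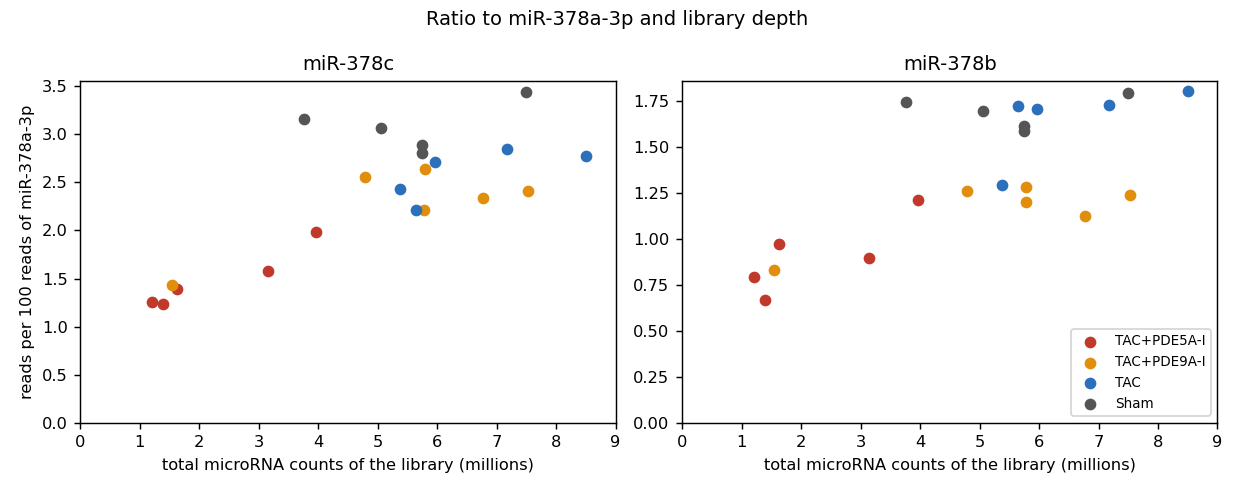
Reads of miR-378c (left) and miR-378b (right) per 100 reads of miR-378a-3p against the total microRNA counts of each library, with linear axes. TAC+PDE5A-I 3, 4 and 5 and TAC+PDE9A-I 5 lie at the low end of both axes. For miR-378b the other 5 TAC+PDE9A-I libraries lie below TAC at overlapping depths, and the ratio of TAC+PDE5A-I 2 is within their range.

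The levels of the members were set against each other over libraries. Over the 10 TAC and Sham libraries the Pearson correlation of log2 CPM was 0.91 between miR-378a-3p and miR-378b, 0.92 between miR-378a-3p and miR-378c, and 0.92 between miR-378b and miR-378c. Over all 21 libraries the first 2 values were 0.53 and 0.51, while that between miR-378b and miR-378c was 0.94. miR-378a-5p correlated with miR-378a-3p, from the same hairpin, at 0.55 and 0.54. The points share group, depth and scaling, and the values are descriptions.

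Among non-members with at least 10 CPM, the 5 microRNAs whose levels followed miR-378a-3p most closely over the 10 TAC and Sham libraries were miR-30a-3p (r = 0.99), miR-30e-3p (0.98), miR-181a-1-3p (0.97), miR-30c-2-3p (0.96) and miR-30c-1-3p (0.91). Over all 21 libraries they were miR-30d-5p (0.89), miR-181a-1-3p (0.87), miR-30b-3p (0.86), miR-30c-1-3p (0.82) and miR-30c-2-3p (0.81). Arms of miR-30 hairpins, a family abundant in heart muscle, thus made up 4 of the 5 in each list. Of each list of 5, 4 were also among the top 5 by Spearman correlation.

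For miR-378c the nearest over the 10 libraries were miR-30c-1-3p (0.95), miR-1943-5p (0.93), miR-874-3p (0.92), miR-338-3p (0.92) and miR-139-3p (0.91), of which 1 was also in the top 5 by Spearman correlation. Over 21 libraries they were miR-30a-3p (0.94), miR-30e-3p (0.94), miR-133a-5p (0.91), miR-185-5p (0.87) and miR-690 (0.86), of which 3 were.

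Other microRNAs tied to metabolism were read from the same fit. A first list held 7 microRNAs from introns of metabolic genes, the arms of miR-33, from the sterol regulator gene Srebf2, and of miR-103 and miR-107, from pantothenate kinase genes, and 5 of the 7 were tested. In TAC against Sham none of the 5 passed (median log2 fold change -0.02, beside -0.079 over all microRNAs). The most abundant, miR-103-3p and miR-107-3p, were at 0.37 ± 0.16 (adjusted p = 0.22) and -0.02 ± 0.18 (adjusted p = 0.986). In TAC+PDE9A-I against TAC none passed either (median 0.0037, beside -0.041).

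In TAC+PDE5A-I against TAC, where 24.8% of all microRNAs were called lower, 2 of the 5 were, miR-33-5p (adjusted p = 0.000181) and miR-33-3p (adjusted p = 0.0208). Neither had a read in any of the 5 sildenafil libraries, where 3 counts would be 0.756 to 2.49 CPM, against 7.11 ± 1.68 CPM for miR-33-5p and 1.62 ± 1.50 CPM for miR-33-3p in TAC (n = 5). miR-33-3p in TAC was thus within the range that the shallow libraries could miss, and no fold is given for it.

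A second list held 16 microRNAs described as regulators of mitochondrial or fuel metabolism, of which 14 were tested. In TAC against Sham none passed (median log2 fold change -0.0041, beside -0.079). The most abundant, miR-22-3p, known from heart muscle hypertrophy, and miR-143-3p, known from smooth muscle, were at -0.34 ± 0.23 and 0.11 ± 0.56. In TAC+PDE9A-I against TAC none passed (median -0.036, beside -0.041).

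In TAC+PDE5A-I against TAC, 6 of the 14 fell and none rose, with a median of -0.79 beside -0.31 over all microRNAs. Those with the smallest p were miR-27a-3p (-1.49 ± 0.34, adjusted p = 0.00295), miR-27b-3p (-1.53 ± 0.36, adjusted p = 0.00307), both known to restrain fat cell formation, and miR-338-3p (-1.05 ± 0.26, adjusted p = 0.00387), known to act on mitochondrial messages in neurons. The share of 6 in 14 compares with 24.8% called lower among all microRNAs. miR-499-5p, a heart muscle marker as well, also fell (-2.37 ± 0.70, adjusted p = 0.0114). The sums of the smooth muscle and endothelial markers were lower in the same libraries, as that of the fibroblast and stroma markers was, at 4830 to 43183 CPM in TAC+PDE5A-I against 70065 to 143384 CPM in TAC for smooth muscle and 999 to 15678 CPM against 25783 to 42974 CPM for endothelium. Within the smooth muscle pair miR-145a-5p went the other way and rose (0.67 ± 0.22, adjusted p = 0.0199), and of the endothelial pair miR-126a-3p did not pass. miR-143-3p, another of the 6 that fell, belongs both to this list and to the smooth muscle markers, and the part of cell composition or of depth in these changes was not tested.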

How the data were processed

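Mature microRNAs of left ventricular myocardium were sequenced from 21 mice, with small RNA libraries made from 500 ng of total RNA, per the labels' protocols. The deposited values are raw read counts per mature microRNA, which the authors left unnormalised. Their label names miRge, without a version or settings. Tools named without roles are Bowtie 1.1.1, CASAVA 1.8.4, DESeq 1.26.0 and cutadapt 1.8, per the submitters' processing notes. Genome build, microRNA annotation and the handling of reads that match several microRNAs are not stated there, so counts of miR-378a-3p, miR-378b and miR-378c may include reads of one another. No value equalled 1 and the smallest above 0 was 2.

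Of 1903 named microRNAs, 832 had a count and 561 passed filterByExpr. Blank lines of the table (24055 of 25958) were dropped. Counts were scaled by TMM and fitted in edgeR 4.0.16 (R 4.3.3) with a quasi-likelihood model (robust) of the 4 groups (17 residual degrees of freedom). P-values were adjusted by Benjamini-Hochberg over 561 microRNAs, with calls under 0.05. The prior count for log2 CPM was 2. Read ratios used a pseudocount of 0.5 and exact permutation tests (scipy 1.17.1) with 252 or 462 arrangements. The scripts were tested on simulated data. Replicate numbers did not mark the same mouse, since every ear tag differs. Whether mice with the same number shared a batch is not given in the sources used here. No pair of libraries within a group agreed within sampling noise. Exact intervals on read ratios cover counting error only, while those on log2 fold changes come from the quasi-likelihood fit and include the spread between mice. A count of 0 allows up to 3 counts, which is 0.353 to 2.49 CPM depending on depth.

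The members, the lists and the tests were chosen with earlier results of these data known. All members were named. The microRNAs named for likeness were the 5 with the highest Pearson correlation, and those named from each list the 3 called with the smallest p, or else the 2 most abundant. Alternatives were DESeq2 1.42.0, other scalings, no filter, a fit of each pair of groups alone, ear tag range, the replicate number as a block, thinned counts, a GC correction, summed members, another pseudocount, TMM-scaled CPM for the summed share, Spearman correlation and the omission of each library. The omission of 4 libraries under 2000000 counts was added after seeing the data.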

Additional observations from a re-analysis of the deposited data

Results flagged for a closer look

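Of 32 sets of a member or ratio in 1 group that were examined for a library far from the others, 5 had one, and chance flags about 1 in 20 such sets. miR-378d was at 0 CPM in TAC+PDE5A-I 5, where the other 4 sildenafil libraries had 12.3 to 15.3 CPM. In Sham, miR-378d was at 22.4 CPM in Sham 3, above 17.6 to 18.8 CPM in the other 4. In TAC+PDE9A-I 5, the shallow library of its group, miR-378c had 1.44 reads and miR-378b 0.832 reads per 100 of miR-378a-3p, below the other 5 libraries for both. In TAC 5 miR-378b had 1.29 reads per 100 of miR-378a-3p, below the 1.70 to 1.8 of the other 4 TAC libraries.

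The effects of the drugs relative to TAC differed in 2 results by a test of the difference itself, which is the comparison of TAC+PDE5A-I with TAC+PDE9A-I given above, since TAC cancels. For miR-378a-5p, the effect in TAC+PDE5A-I minus that in TAC+PDE9A-I was 0.64 on the log2 scale (edgeR, adjusted p = 0.019), and the call was lost in 8 of 11 omissions of 1 library and without the 4 shallow libraries (0.45, adjusted p = 0.216). For the ratio of miR-378c to miR-378a-3p it was -0.60 (exact permutation test, adjusted p = 0.0292), lost without TAC+PDE5A-I 3, 4 or 5. Without the 4 shallow libraries it was -0.46, where too few sildenafil mice were left for the test to pass.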

How the results depend on the processing

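All values are log2 differences unless they are counts or percentages, the cause of each difference from the values above was not tested, and no member was called in one direction by one setting and in the other by another. Relative to TMM, upper-quartile scaling moved the median over all microRNAs from -0.31 to 0.16 in TAC+PDE5A-I against TAC, -0.25 to 0.11 against TAC+PDE9A-I and -0.28 to 0.15 against Sham. Total counts moved it from -0.079 to 0.088 in TAC against Sham. Upper-quartile scaling gave called values of 0.82 for miR-378a-3p in TAC+PDE5A-I against TAC, 0.59 against TAC+PDE9A-I, and 0.88 for miR-378a-5p against Sham. It reversed miR-378c and miR-378d against TAC (0.014 and 0.40), miR-378b, miR-378c and miR-378d against TAC+PDE9A-I (0.29, 0.042 and 0.058) and miR-378a-3p against Sham (0.35). It called 1 microRNA (0.178% of those tested) in TAC+PDE9A-I against TAC. Total counts gave calls in TAC+PDE5A-I against TAC for miR-378a-3p (0.38) and miR-378b (-0.46), and for miR-378a-5p against Sham (0.54). They reversed miR-378d against TAC (0.013) and miR-378a-3p against Sham (0.051), and called 30 microRNAs (5.35%) in TAC+PDE9A-I against Sham.

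Without the filter on low counts 20 microRNAs were called in TAC against Sham, and fewer of the 832 tested in TAC+PDE5A-I against TAC (24.2%), TAC+PDE9A-I (16.1%) and Sham (24.6%). In TAC+PDE5A-I against TAC, miR-378a-5p no longer passed (0.51) and miR-378b and miR-378c did (-0.71 and -0.65). miR-378a-5p against TAC+PDE9A-I (0.48) and miR-378c in TAC+PDE9A-I against Sham (-0.74) did not pass. Fits of the compared groups alone called miR-378c in TAC against Sham (-0.60), with 98 microRNAs (19.3%). They lost miR-378a-5p between the drugs (0.50, with 0 called by edgeR and 162 at an unadjusted p under 0.05) and miR-378c in TAC+PDE9A-I against Sham (-0.75, with 4 called, 0.778%), and put miR-378d in TAC+PDE5A-I against TAC at 0.0083. With ear tag range added to the model, 4 microRNAs (0.713%) were called in TAC against Sham, 115 (20.5%) between the drugs and 1 (0.178%) in TAC+PDE9A-I against Sham. miR-378a-5p between the drugs (0.57) and miR-378b and miR-378c in TAC+PDE9A-I against Sham (-0.92 and -0.83) did not pass, and miR-378d in TAC+PDE5A-I against TAC was at 0.12.

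DESeq2 called miR-378a-3p and miR-378c in TAC against Sham (-0.49 and -0.74, among 54, 9.63%), miR-378b and miR-378c in TAC+PDE5A-I against TAC (-0.67 and -0.61) and miR-378c between the drugs (-0.51). It called 2 microRNAs (0.357%) in TAC+PDE9A-I against TAC and 35 (6.24%) in TAC+PDE9A-I against Sham. Counts thinned to the smallest total gave 6 calls (1.52%) in TAC against Sham, 143 in TAC+PDE5A-I against TAC, 112 between the drugs, 145 in TAC+PDE5A-I against Sham and 7 in TAC+PDE9A-I against Sham. miR-378a-5p between the drugs (0.57) and miR-378c in TAC+PDE9A-I against Sham (-0.76) did not pass there, and the miR-378a-5p ratio in TAC+PDE9A-I against TAC was at -0.072. The GC correction had a GC value for 3 of 5 members (60%), so it is void for the family as a set. It called miR-378c in TAC against Sham (-0.84), lost miR-378b against Sham in TAC+PDE5A-I (-0.53) and TAC+PDE9A-I (-0.84), and put miR-378b at 0.081 and miR-378d at 0.025 in TAC+PDE5A-I against TAC, miR-378b at 0.31 between the drugs and miR-378c at 0.018 in TAC+PDE9A-I against TAC. It called 157 microRNAs in TAC+PDE5A-I against TAC, 80 (16.4%) between the drugs, 1 (0.205%) in TAC+PDE9A-I against TAC and 3.70% in TAC against Sham.

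With the replicate number as a block, miR-378c in TAC against Sham (-0.75, adjusted p = 0.0288) and miR-378b and miR-378c in TAC+PDE5A-I against TAC (-0.52 and -0.46, adjusted p = 0.0267 and 0.0345) passed, miR-378d there was at 0.0091, and the block changed no other call. What mice share beyond the number is not given in the sources used here. Over 30 pairs with the same number the correlation of deviations was -0.21 to 0.35, with 7 over 0.1.

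Without the 4 libraries under 2000000 counts, chosen after seeing the data, miR-378a-3p, miR-378b and miR-378c passed in TAC against Sham (-0.50, -0.54 and -0.75), among 75 (11.4%). miR-378a-5p did not pass in TAC+PDE5A-I against TAC (0.49, with 18.5% called) or between the drugs (0.45, with 15.8% called), where miR-378b was at 0.15. miR-378d was at 0.37 and 0.40 in those comparisons and at -0.033 in TAC+PDE9A-I against TAC (0.303% called). Against Sham 18.2% were called in TAC+PDE5A-I and 5.61% in TAC+PDE9A-I. The miR-378c ratio in TAC against Sham (-0.25) did not pass, though none of its libraries was omitted and only the adjustment over the other tests changed. For TAC+PDE5A-I, ratios of miR-378c against TAC, TAC+PDE9A-I and Sham (-0.55, -0.46 and -0.79) did not pass. Nor did those of miR-378b against TAC and Sham (-0.65 and -0.69). With 2 sildenafil libraries left, the sildenafil ratios could not pass against TAC, TAC+PDE9A-I or Sham.

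The summed share of the family, on the TMM scale, differed from Sham by -0.18 in TAC+PDE5A-I and -0.42 in TAC+PDE9A-I, against 0.017 and -0.21 as a share of counts.

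With each library left out in turn, the share of microRNAs called was 0.515% to 2.59% in TAC against Sham, 28.2% to 48.3% in TAC+PDE5A-I against TAC, 0% to 0.179% in TAC+PDE9A-I against TAC, 12.3% to 45.0% between the drugs and 1.2% to 5.57% in TAC+PDE9A-I against Sham. Ranges of members with a changed call or direction were, in TAC+PDE5A-I against TAC, 0.38 to 0.90 for miR-378a-5p, -0.86 to -0.42 for miR-378b, -0.80 to -0.35 for miR-378c and -0.42 to 0.17 for miR-378d. In TAC+PDE9A-I against TAC they were -0.028 to 0.16 for miR-378a-3p, -0.013 to 0.26 for miR-378a-5p and -0.14 to 0.37 for miR-378d. Between the drugs they were 0.34 to 0.63 for miR-378a-5p and -0.62 to -0.30 for miR-378c. In TAC+PDE9A-I against Sham they were -0.95 to -0.84 for miR-378b and -0.86 to -0.71 for miR-378c. Ratios to miR-378a-3p ranged in TAC against Sham from -0.28 to -0.19 for miR-378c, -0.075 to 0.046 for miR-378b and -0.0299 to 0.27 for miR-378a-5p. The miR-378a-5p ratio ranged from 0.39 to 0.59 in TAC+PDE5A-I against Sham and -0.15 to 0.15 in TAC+PDE9A-I against TAC. Between the drugs the ratios ranged from -0.73 to -0.54 for miR-378c and -0.48 to -0.26 for miR-378b. Calls of the miR-378b and miR-378c ratios in TAC+PDE5A-I against TAC and Sham and in TAC+PDE9A-I against Sham held in every such omission. So did that of miR-378b in TAC+PDE9A-I against TAC. These calls also held in the thinned counts, which leave the expected ratios as they were, and with a pseudocount of 1. The other scalings, models and corrections above were not applied to the ratios. With the libraries under 2000000 counts omitted, the calls of TAC+PDE5A-I could not pass. miR-378d rested on 0 to 121 reads per library.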
